A study of Homo sapiens with 24 samples.

Results

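The subunits of the 4 respiratory chain complexes and of ATP synthase were followed at the level of their mRNAs in T/C-28a2 cells, an immortalised human chondrocyte line. Members were taken by name, as the protein-coding genes whose symbols begin with NDUFA, NDUFB, NDUFC, NDUFS or NDUFV, SDHA to SDHD, UQCR, COX4 to COX8 or ATP5, together with the 13 mRNAs of the mitochondrial genome. The rule returned 115 of the 62703 genes in the files, 102 of them nuclear and 13 mitochondrial, and no expression value entered it. It also takes in 12 assembly factors, such as NDUFAF2 and SDHAF1, that share a prefix with the subunits. Complex I held 53 members, complex II 8, complex III 10, complex IV 22 and ATP synthase 22.

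The respiratory chain passes electrons from NADH through complex I, or from succinate through complex II, by way of complex III to oxygen at complex IV. Complexes I, III and IV pump protons across the inner mitochondrial membrane, and ATP synthase uses the returning protons to make ATP. The mitochondrial genome encodes a few hydrophobic core subunits of every complex except complex II, and all other subunits are encoded in the nucleus, made on cytosolic ribosomes and imported. Cartilage has no blood supply, and chondrocytes are known for relying heavily on glycolysis.

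Bulk RNA-seq was available for 24 libraries, 4 in each of 6 groups. Wild type cells were kept in isotonic medium of 300 mOsm (WT Ctr) or in medium raised to 400 mOsm with 100 mM sorbitol for 7 days (WT Sor). The same media were used for cells transfected with a wild type WNK2 construct 48 hours before (WNK2 Trans Ctr and WNK2 Trans Sor) and for cells in which exon 2 of WNK2 had been deleted with CRISPR/Cas9 (WNK2- Ctr and WNK2- Sor). WNK2 is a kinase that takes part in the response to osmotic stress. The WNK2- cells are 1 clonal line and the WT cells were not transfected, so that clone and genotype, or transfection and the construct, cannot be told apart. The labels do not say whether replicates were separate cultures, so the p-values measure only the spread between these libraries.

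Each library held between 14153002 and 25664619 counts. Counts of WNK2 itself ranged from 1217 to 2568 for WT Ctr and from 266 to 314 for WT Sor. They ranged from 2237 to 3739 for WNK2 Trans Sor, and for the deletion line from 440 to 501 without and from 322 to 503 with sorbitol. The libraries labelled WNK2 Trans Ctr had only 163 to 290 WNK2 counts, which goes against the label. WT Sor was low too, below every WNK2- library, whereas the paper reported no significant change of WNK2 with sorbitol. Groups were kept as labelled throughout. The sorbitol comparisons of WT and WNK2 Trans cells, the isotonic comparisons and both interactions rest on the labels of WT Ctr and WNK2 Trans Ctr. All comparisons with WT Sor, including those of WNK2- and WNK2 Trans cells in sorbitol, rest on its label as well. Counts over the whole gene do not test an exon deletion. Of 17 chondrocyte markers, COL11A2 and HAPLN1 reached 1 CPM in every library, while 6 others, SOX9, SOX6, COL9A1, COL11A1, CHAD and CNMD, were below it everywhere. The summed chondrocyte markers stood at 29.2 to 33.3 CPM in the WNK2- libraries and at 97.4 to 173 CPM in the others. Of the markers of other cells, 3 of 8 for fibroblasts, 2 of 6 for epithelium (KRT8 and KRT18), 1 of 4 for endothelium (PECAM1) and 1 of 5 for blood (CD14) reached 1 CPM in every library, and CD3E, HBB and PTPRC were below 1 CPM. Fibroblast markers summed to 991 to 1200 CPM in WNK2- Sor, 1200 to 1920 CPM in WNK2 Trans Sor and 2620 to 6160 CPM in the other 4 groups. The part of these differences in the results was not tested, and in bulk RNA fewer cells of a type cannot be told apart from less RNA per cell.

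WT Ctr was uneven for the respiratory genes. Relative to its mean over all libraries, the median nuclear member stood 0.447 log2 units higher in WT Ctr 1 and 0.53 higher in WT Ctr 2, against 0.073 and 0.106 in WT Ctr 3 and 4. WNK2 Trans Ctr 3 was also high, at 0.414, and WNK2 Trans Sor 4 was low, at -0.422. WT Ctr 2 had the lowest share of mitochondrial mRNAs of its group, 1.88% of counts, while the other 3 libraries lay between 2.61% and 2.71%. WT Ctr enters the sorbitol comparison of WT cells, the isotonic comparisons with WT cells and both interactions, so values without WT Ctr 1 and 2 are given beside the results that change.

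Of the 115 members, 91 had enough counts to be tested, 78 nuclear and all 13 mitochondrial. A further 19 members were listed at 0 in all 24 libraries, among them SDHA and SDHD of complex II, NDUFV2 of the complex I electron input arm, COX8A, UQCR11 and ATP5PO. These are parts that any respiring cell is known to use, and 15.8% of all protein-coding genes in the files were listed at 0 in the same way, against 16.5% of the members. They are therefore described only as listed at 0. The remaining 5 untested members, COX6A1, NDUFA11, ATP5MF-PTCD1, COX7B2 and COX4I2, were close to 0.

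Several factors known to drive nuclear respiratory genes bind short motifs just upstream of these genes. In RefSeq promoters (GRCh38.p14, from 250 bases before to 50 bases after the gene start), 82 of the 102 nuclear members had an entry. The motif of NRF1 (GCGC, any base, then TGCGC), searched like the others on both strands, was held by 20 of the 82 (24.4%) and by 6.28% of all 27305 promoters. Among tested genes it was held by 13 of 64 members (20.3%) and by 10.9% of the 11445 tested genes with an entry. The ETS motif CCGGAAGT of the GABP factors was held by 6 of the 64 tested members (9.38%), against 7.7% of all tested genes, and the YY1 motif AAGATGGCG by 6 (9.38%), against 3.44%. The ERR motif TCAAGGTCA was held by 0 of the 64, against 0.218%. Over all promoters the shares for ETS, YY1 and ERR were 4.44%, 1.85% and 0.359%. The 5 stretches that follow, from promoters of members that were lower after sorbitol in WT cells, are shown as examples of these motifs, chosen from among several.
UQCRC1, NRF1 motif in capitals, chr3:48609647-48609733, minus strand: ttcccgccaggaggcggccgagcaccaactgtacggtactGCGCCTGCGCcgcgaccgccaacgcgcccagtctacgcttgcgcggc
ATP5F1C, NRF1 motif in capitals, chr10:7788115-7788176, plus strand: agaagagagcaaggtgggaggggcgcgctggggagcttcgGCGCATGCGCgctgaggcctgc
NDUFA12, NRF1 motif in capitals, chr12:95003764-95003853, minus strand: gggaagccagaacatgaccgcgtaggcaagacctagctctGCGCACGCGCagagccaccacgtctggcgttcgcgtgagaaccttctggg
UQCRFS1, NRF1 motif in capitals, chr19:29213152-29213222, minus strand: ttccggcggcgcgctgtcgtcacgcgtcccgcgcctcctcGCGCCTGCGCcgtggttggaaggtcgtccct
UQCRQ, ETS motif in capitals, chr5:132866548-132866635, plus strand: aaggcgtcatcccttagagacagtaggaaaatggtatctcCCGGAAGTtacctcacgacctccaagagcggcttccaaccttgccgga
The motifs begin 47, 22, 116, 31 and 54 bases upstream of the respective gene starts. Among tested members with a promoter entry, 8 of 36 that sorbitol lowered in WT cells held the NRF1 motif (22.2%) and 5 of 28 that were not called did so (17.9%). The ETS motif was held by 2 of the 36 (5.56%) and by 4 of the 28 (14.3%). For YY1 these were 5 (13.9%) and 1 (3.57%), and for ERR 0 and 0. A match is a run of letters and not a measured binding site.

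Expressed per kilobase of exon, 12 of the 13 mitochondrial mRNAs had a higher mean than any nuclear member. The length joins the exons of all annotated transcripts of a gene, 548 bases for NDUFS5 and 10908 for ATP5F1A. The order of members therefore depends on annotation as well as on counts. Summed over the 24 libraries, ATP5F1B had 286799 counts, ATP5F1A 194146 and NDUFS5 60184. In WT Ctr, MT-CO2, which encodes a copper-bearing core subunit of complex IV, stood highest at 6090 CPM per kb. MT-CO1 followed at 3920, MT-CO3 at 3710 and MT-ND4 at 2590 CPM per kb. MT-ND4L stood at 493 and MT-ND6, which is read from the opposite strand, at 370 ± 82.9 (SD, n = 4), and MT-ATP8, at 40.1 CPM per kb, lay below many nuclear members. Per kilobase, the highest nuclear member was NDUFS5, an accessory subunit of complex I, at 341 ± 105 CPM per kb (SD, n = 4). Its libraries overlapped those of MT-ND3, MT-ND4L and MT-ND6. ATP5F1B, the catalytic beta subunit of ATP synthase, followed at 310 ± 38 CPM per kb. NDUFS5 and ATP5F1B lay within each other's spread. NDUFB7 at 157, UQCRC1 at 155, NDUFB11 at 105, COX6B1 at 102 and COX4I1 at 97.7 CPM per kb came next. Complex II, which has no mitochondrially encoded part, was led by the iron-sulfur subunit SDHB at 43.6 CPM per kb.

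Several subunits have a tissue-restricted or alternative form. NDUFA4, a subunit first assigned to complex I and now placed in complex IV, stood at 28.8 CPM per kb in WT Ctr against 0.664 for its paralogue NDUFA4L2. UQCRH stood at 78.9 against 1.32 for UQCRHL, which is nearly identical in sequence, so the division of reads between these 2 genes is uncertain. COX7A2 stood at 73.1 against 0.211 for the muscle form COX7A1, COX6B1 at 102 against 0.543 for the testis form COX6B2, and COX4I1 at 97.7 against 0.0671 for COX4I2. Of the genes for the c-ring of ATP synthase, ATP5MC2 stood at 26.6 and ATP5MC3 at 13.2 CPM per kb, while ATP5MC1 was listed at 0. Both forms of COX8, COX8A and COX8C, were listed at 0, as was COX6A2, and COX6A1 was close to 0, so these pairs could not be compared.

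**Figure D1:**
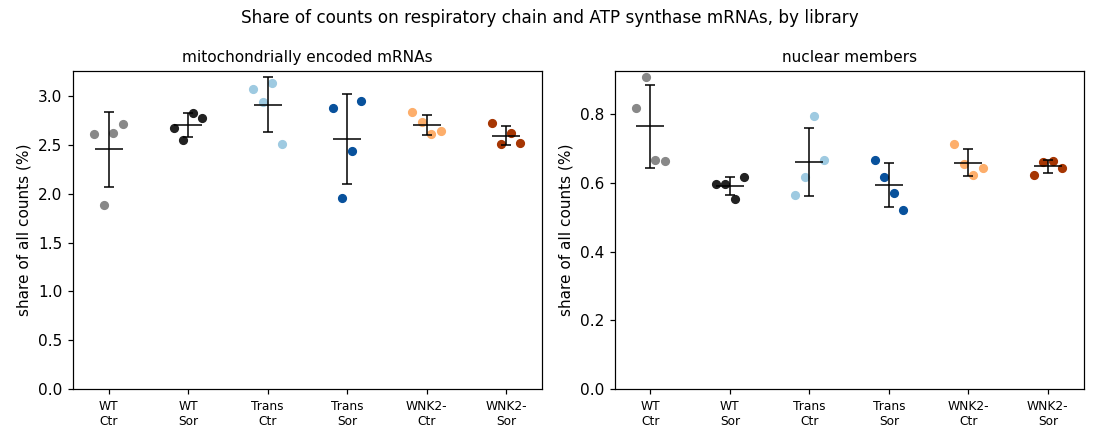
Percent of each library's counts taken by the mitochondrial mRNAs and by the nuclear members, 1 point per library in the 6 groups with the mean and SD. WT Ctr 2 has the lowest mitochondrial share at 1.88%, and the nuclear share is highest on average in WT Ctr.

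Taken as a share of all counts, nuclear members made up 0.7642% ± 0.12 (SD, n = 4) of WT Ctr libraries but 0.5915% ± 0.0266 of WT Sor libraries, and the lowest WT Ctr library, at 0.665%, stood above the highest WT Sor library, at 0.617%. In WNK2- cells the corresponding shares were 0.6585% ± 0.0393 and 0.648% ± 0.0185, a difference smaller than the spread. Mitochondrial mRNAs made up 2.455% ± 0.386 in WT Ctr and 2.705% ± 0.123 in WT Sor, 2.913% ± 0.28 in WNK2 Trans Ctr and 2.558% ± 0.458 in WNK2 Trans Sor, and 2.705% ± 0.103 in WNK2- Ctr and 2.593% ± 0.0984 in WNK2- Sor. Nuclear copies of mitochondrial genes drew between 0 and 29 counts per library, and adding them left these shares unchanged.

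The first comparison asked how a week of hyperosmotic medium changed these mRNAs in wild type cells. After sorbitol, 44 of the 91 tested members were lower and 1, NDUFA4L2, was higher by edgeR's quasi-likelihood test at a Benjamini-Hochberg adjusted p below 0.05, where 12.8% of all 16600 tested genes were lower, 11.4% were higher and 24.2% changed in either direction. The lower members were almost all nuclear, 43 of 78, with a median log2 fold change of -0.434 against 0.035 over all genes. The mitochondrial mRNAs had a median of 0.026, and 1 of 13, MT-ATP8, was lower. All 5 complexes held lower nuclear members, 21 of 39 in complex I (median -0.418), 2 of 5 in complex II (-0.269), 5 of 8 in complex III (-0.408), 7 of 13 in complex IV (-0.469) and 8 of 13 in ATP synthase (-0.552). The size of this change depended on WT Ctr 1 and 2. Without both libraries 8 members were lower and none higher, and 8.79% of tested members were lower against 5.88% of all genes. The nuclear median was then -0.182, with 6 of 78 lower, and the mitochondrial median -0.115, with 2 of 13 lower. The distance between the 2 genomes thus also depended on these libraries. By complex, the lower nuclear members without both were 2 of 39 in complex I, 1 of 5 in complex II and 3 of 13 in ATP synthase. In complex III they were 0 of 8 and in complex IV 0 of 13. The 5 tested for complex II were SDHB, SDHC and the assembly factors SDHAF1, SDHAF3 and SDHAF4. Without WT Ctr 2 alone, 26 members were called.

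**Figure D2:**
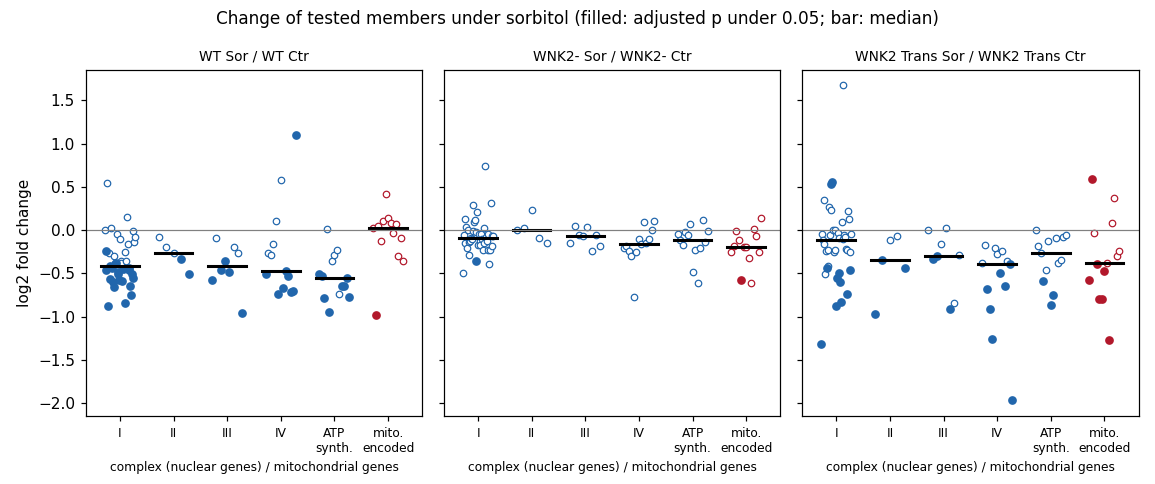
Log2 fold change of each tested member after sorbitol, in WT, WNK2 Trans and WNK2- cells, by complex and genome, with filled points for members at an adjusted p below 0.05 and bars at the medians. In WT cells the nuclear medians lie between -0.552 for ATP synthase and -0.269 for complex II and the mitochondrial one at 0.026, and in WNK2- cells 2 members are filled. Without WT Ctr 1 and 2 the WT medians were -0.182 for all nuclear members and -0.115 for mitochondrial ones.

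Of the 7 members lower under every alternative, ATP synthase held the nuclear ATP5F1B, ATP5F1C and ATP5PB and the mitochondrial MT-ATP8. ATP5F1B had 13609, 16270, 12633 and 12164 normalized counts in the 4 WT Ctr libraries and 9876, 9528, 9096 and 9534 in WT Sor. Every sorbitol library lay below every control library, the log2 fold change was -0.52 ± 0.093 (SE; adjusted p = 0.000231, edgeR), and without WT Ctr 1 and 2 it was still called at -0.374. ATP5F1C, the gamma subunit that forms the rotor stalk, had 2331, 4152, 2877 and 2331 in WT Ctr and 1754, 1545, 1708 and 1809 in WT Sor. ATP5PB, the b subunit of the stator, had 3316, 4148, 3062 and 2739 against 2315, 2237, 2191 and 2304. Both also fell without overlap. ATP5F1E, the small epsilon subunit of the catalytic head, showed one of the largest falls (-0.94 ± 0.208, adjusted p = 0.00185), but its control values of 6089 and 7917 in WT Ctr 1 and 2 stood well above the 4149 and 3875 of WT Ctr 3 and 4, and the call was lost without the first 2.

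In complex III, UQCRQ, an accessory subunit, fell the most of all nuclear members. It had 1160, 1464, 814.6 and 781.9 normalized counts in WT Ctr against 527, 605.7, 446.4 and 591.1 in WT Sor (log2 fold change -0.96 ± 0.225, adjusted p = 0.003, edgeR). The groups did not overlap, yet the call was lost without WT Ctr 1 and 2. UQCRC1, a subunit that faces the matrix, changed by -0.46 ± 0.113 and was lost in the same way. In complex II the membrane anchor SDHC had 1902, 2467, 1945 and 1763 in WT Ctr and 1451, 1471, 1378 and 1396 in WT Sor, and it was lower with all libraries (-0.50 ± 0.097, adjusted p = 0.000526) and without WT Ctr 1 and 2 (-0.372). SDHB was lower by -0.33 ± 0.092, and not without WT Ctr 2 (-0.23, adjusted p = 0.071).

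In complex I, both matrix-arm core subunits and accessory subunits were lower, 3 of 6 nuclear core subunits and 13 of 24 accessory subunits. NDUFS4, an accessory subunit at the electron input end, had 886.3, 1016, 854.6 and 731.4 normalized counts in WT Ctr and 571.6, 596.2, 531.6 and 539 in WT Sor, and passed under every alternative. Among core subunits NDUFS8 (-0.55 ± 0.156) and NDUFS3 (-0.45 ± 0.136) were lower, neither of them without WT Ctr 2 (adjusted p of 0.0637 and 0.0812) and NDUFS3 also not without WT Sor 3 (0.055). NDUFB9, an accessory subunit, changed by -0.84 ± 0.203 (adjusted p = 0.00395), from 1435 to 3585 in WT Ctr to 1195 to 1416 in WT Sor, and this call too was lost without WT Ctr 1 and 2. NDUFAF7, a methyltransferase that acts during assembly of the complex, passed under every alternative, with 467.8, 649, 542 and 578.8 in WT Ctr and 418.1, 391.9, 359.2 and 431.8 in WT Sor.

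In complex IV the paralogues NDUFA4 and NDUFA4L2 moved apart. NDUFA4 had 2028, 2750, 1585 and 1439 normalized counts in WT Ctr and 1257, 1202, 1078 and 1268 in WT Sor (-0.70 ± 0.16, adjusted p = 0.00247, edgeR), a call that was lost without WT Ctr 1 and 2. NDUFA4L2, known as a target of the hypoxia factor HIF-1, had 30.1, 32, 31.4 and 47.8 in WT Ctr and 63.2, 64.5, 97.4 and 76.6 in WT Sor (1.10 ± 0.321, adjusted p = 0.0142). Each sorbitol library lay above each control library, but counts were low and without WT Sor 3 the adjusted p was 0.058. COX7A2 (-0.67 ± 0.169) and COX7B (-0.53 ± 0.163), accessory subunits, and COX4I1 (-0.51 ± 0.17), the common form of subunit 4, were also lower. COX4I1 was not called without any 1 of WT Ctr 1 or 2 or WT Sor 1, 2 or 3 (adjusted p up to 0.154), COX7B not without WT Ctr 1 or 2 or WT Sor 3 (up to 0.0576), and COX7A2 not without WT Ctr 1 and 2 together.

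In WNK2- cells 2 of 91 members were called after the same treatment, both lower, against 14.9% of all genes in either direction, 8.25% higher and 6.64% lower. MT-CO3, a core subunit of complex IV, had 66853, 57447, 52447 and 59279 normalized counts in WNK2- Ctr and 38698, 41262, 36014 and 42098 in WNK2- Sor, without overlap (-0.58 ± 0.152, adjusted p = 0.00977, edgeR), and it passed under every alternative. NDUFAF7 changed by -0.36 ± 0.108 and was lost without any 1 of 4 libraries, WNK2- Ctr 1 or 2 or WNK2- Sor 2 or 4 (adjusted p up to 0.077). The nuclear median was -0.101 and the mitochondrial median -0.189. With the spread estimated from the 8 WNK2- libraries alone 14 members were called, 13 of them lower. With a correction for GC content and length 14 were called, all lower. The shares of all genes under these settings are not given here, so the counts are not set against them.

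A fall in WT cells and not in WNK2- cells is not in itself a difference, and the difference was tested as an interaction. The nuclear median of the interaction, the sorbitol change in WNK2- minus that in WT, was 0.316 against -0.009 over all genes. Yet 3 members passed, ATP5F1B (0.42 ± 0.131, adjusted p = 0.0488) and ATP5MK (0.75 ± 0.217, adjusted p = 0.0309) higher and MT-CO3 (-0.68 ± 0.215, adjusted p = 0.0478) lower, where 3.99% of all genes were higher, 4.66% lower and 8.65% called in total. None of the 3 passed without WT Ctr 1 and 2 or without WT Ctr 2 alone. Without WT Ctr 1 and 2 the nuclear median of the interaction was 0.099, against -0.025 over all genes. The count ran from 0, without any 1 of 7 libraries (WT Ctr 2, WT Sor 1 or 2, WNK2- Ctr 2, 3 or 4, WNK2- Sor 3), through 1 (without WT Sor 3 or 4 or WNK2- Sor 1 or 4), 5 (WT Ctr 1) and 6 (WT Ctr 3), to 18 without WT Ctr 4, and it was 16 by DESeq2 and with only these 4 groups in the fit. In ATP5F1B the WNK2- cells had 14712, 13084, 13324 and 13420 normalized counts in isotonic medium and 12064, 12521, 13510 and 12500 in sorbitol, with overlap.

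Between the libraries labelled WNK2 Trans Ctr and WNK2 Trans Sor, 31 members were lower after sorbitol and 3 higher, while 48% of all genes changed, 24.3% upward and 23.7% downward, against 37.4% of the members in total. Nuclear members had 25 lower and 2 higher with a median of -0.24, and the mitochondrial mRNAs 6 lower and 1 higher with a median of -0.375. Complex IV had 7 of its 13 nuclear members lower. In complex II, SDHAF1, SDHAF3 and SDHC of 5 tested nuclear members were lower, and in complex III UQCRB, UQCRC1 and UQCRH of 8. Complex I and ATP synthase also held lower nuclear members, such as NDUFB10 and ATP5MC2. The number of members called fell to 21 without WNK2 Trans Ctr 3, 17 of them lower. It rose to 67, 63 of them lower, with a correction for GC content and length. The shares of all genes under these settings are not given here. In complex II, SDHC had 1659, 1942, 2114 and 1821 normalized counts in WNK2 Trans Ctr and 1282, 1603, 1387 and 1277 in WNK2 Trans Sor (-0.44 ± 0.097, adjusted p = 0.000583, edgeR). SDHAF1, which helps insert the iron-sulfur clusters of SDHB, had 550.9, 633.3, 845.6 and 720.5 against 503, 260, 322.3 and 324.1 (-0.97 ± 0.186, adjusted p = 0.00014). Both fell without overlap. ATP5MC2 of the c-ring changed by -0.87 ± 0.173 and NDUFS5 by -0.74 ± 0.176, also without overlap. Apart from the low-count NDUFA4L2 (-1.96), the largest falls, NDUFA1 (-1.31 ± 0.423) and MT-ND3 (-1.27 ± 0.353), rested on groups that overlapped, since WNK2 Trans Sor 1 had 598 counts of NDUFA1 and 6644 of MT-ND3 against 101 to 192.3 and 1477 to 2584 in the other 3 libraries, and NDUFA1 was not called without WNK2 Trans Sor 4 (adjusted p = 0.056).

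Of the 8 tested complex I assembly factors named NDUFAF, NDUFAF4 and NDUFAF5 were higher after sorbitol in these cells and the other 6 did not pass. NDUFAF5 had 851.9, 802.1, 878.2 and 697.5 normalized counts in WNK2 Trans Ctr and 1036, 1371, 1234 and 1094 in WNK2 Trans Sor (0.55 ± 0.112, adjusted p = 0.000248, edgeR). In WT cells the values of NDUFAF5 were 938.1, 1311, 1053 and 929.2 in isotonic medium and 772, 788.5, 930.4 and 759.5 in sorbitol. The interaction for NDUFAF5 was 0.93 ± 0.158 (adjusted p = 5.3e-05) and passed under every alternative. NDUFAF4 rose by 0.53 ± 0.159 in WNK2 Trans cells, a call that was lost without WNK2 Trans Sor 2 (adjusted p = 0.053) and with the correction for GC content and length (0.24, adjusted p = 0.109).

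Over the whole interaction, the sorbitol change in WNK2 Trans minus that in WT, 14 members were higher and 5 lower, against 18.1% and 17.4% of all genes (35.5% together). The total of 19 rose to 30 without WT Ctr 1 and to 32 without WNK2 Trans Sor 1, where 15 and 19 members were lower. Without WT Ctr 1 and 2, 7 members were higher and 10 lower, against 16.6% and 16.1% of all genes. The higher members that passed under every alternative were the complex I assembly factors NDUFAF1 (0.88 ± 0.177), NDUFAF3, NDUFAF4 and NDUFAF5 and MT-ATP8. The lower ones were NDUFA4L2 (-3.06 ± 0.468, adjusted p = 1.36e-05), MT-CYB (-1.21 ± 0.263) and MT-CO3 (-0.89 ± 0.215). NDUFA4L2 had 47.3, 68, 118.1 and 64.3 normalized counts in WNK2 Trans Ctr and 28.9, 7, 29.6 and 11.9 in WNK2 Trans Sor (-1.96 ± 0.34, adjusted p = 4e-05). It thus fell in these cells and rose in WT cells, and in WNK2- cells it had 23.7 to 50.2 in isotonic medium and 39.6 to 46.4 in sorbitol.

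**Figure D3:**
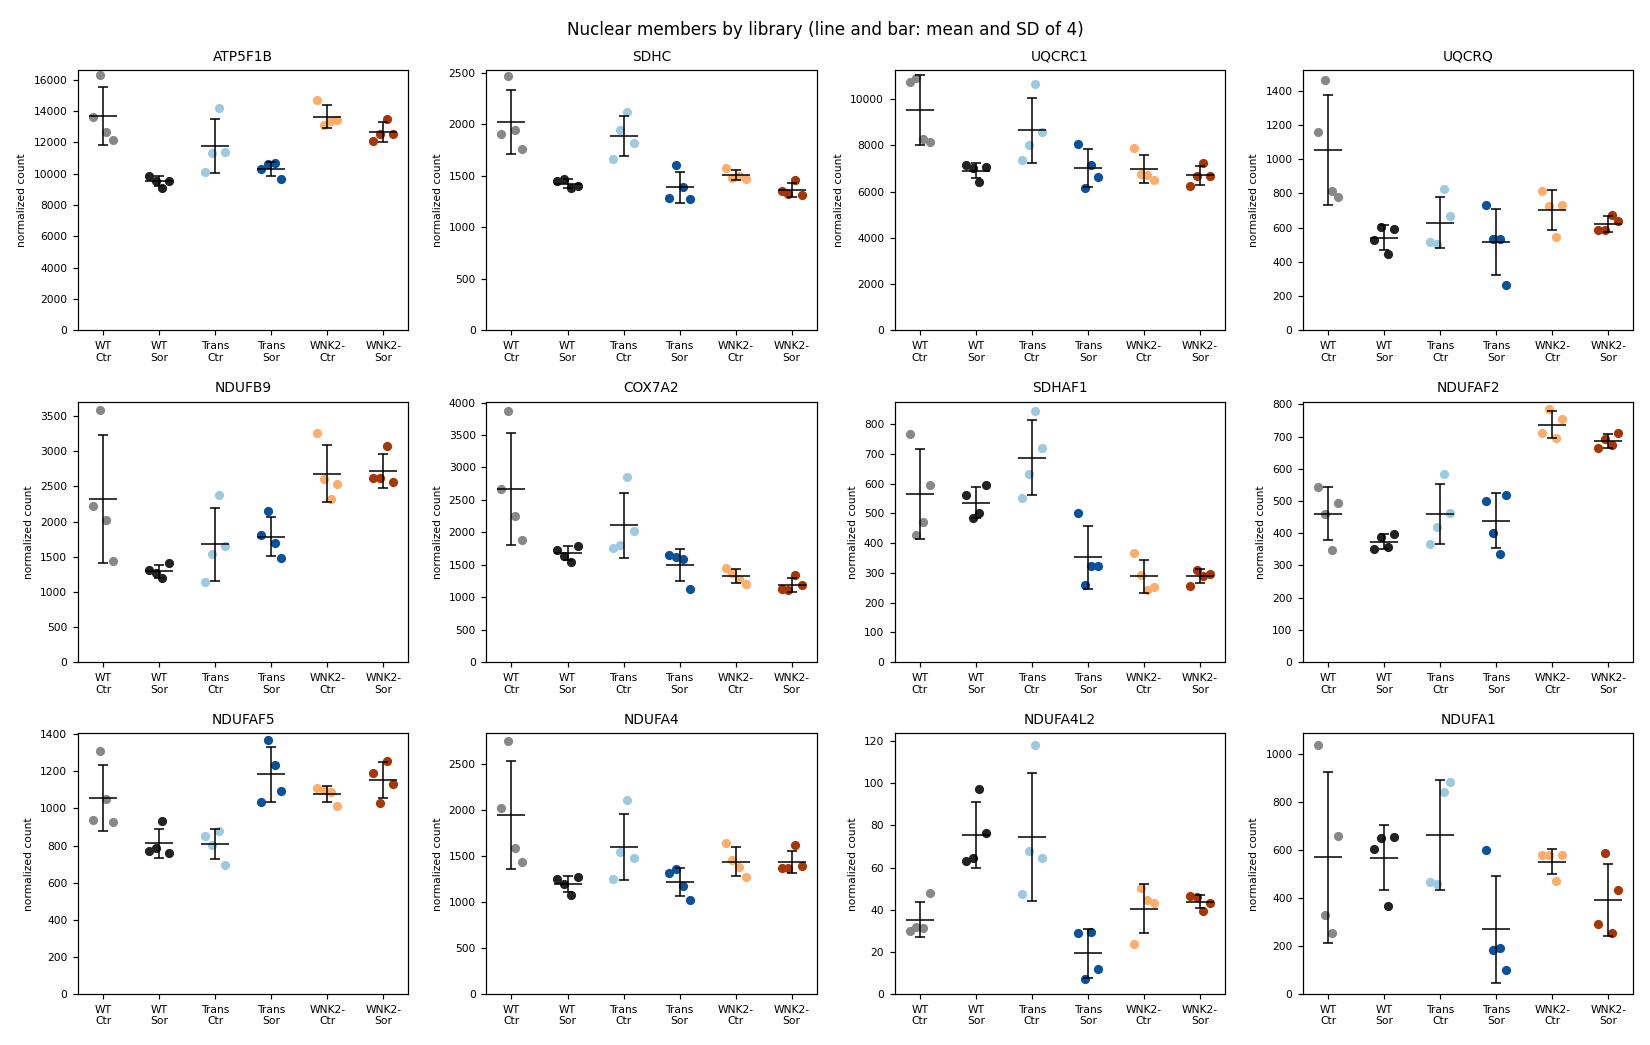
Normalized counts of selected nuclear members in every library, with the mean and SD of each group, on linear axes from 0. ATP5F1B and SDHC are lower in each WT Sor library than in each WT Ctr library, and NDUFA4L2 is at 7 to 29.6 in WNK2 Trans Sor.

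The WT and WNK2 Trans sorbitol comparisons share no libraries. Both lowered 8 members, COX7A2, COX7B, NDUFA4, NDUFA6, NDUFB3, NDUFS5, SDHC and UQCRC1, which is 18.2% of the 44 lower in WT and 25.8% of the 31 lower in WNK2 Trans. Over all genes, 582 were lower in both, 27.5% of those lower in WT and 14.8% of those lower in WNK2 Trans.

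The next comparisons set WNK2- cells against WT cells in the same medium. They share their WT libraries with the sorbitol comparison above, so the values are given side by side. In isotonic medium 27 members were lower and 6 higher in WNK2- cells than in WT cells, where 21.5% of all genes were lower, 20.7% higher and 42.1% changed. The nuclear median was -0.238 and the mitochondrial median 0.092. Without WT Ctr 1 and 2 the nuclear median was -0.016, with 10 members lower and 6 higher. These were 11% and 6.59% of tested members, against 16.7% and 15.3% of all genes. In sorbitol, where WT Ctr 1 and 2 do not enter, 12 members were lower and 20 higher. Among all genes 22.7% were lower there, 23.7% higher and 46.3% changed. In total 36.3% of tested members were called in isotonic medium and 35.2% in sorbitol, below the shares of all genes. Complex IV held no higher nuclear member in either medium. In isotonic medium 6 of 13 were lower, and without WT Ctr 1 and 2 it was 3 of 13 with a median of -0.136. In sorbitol 3 of 13 were lower, near the 22.7% of all genes. Of the nuclear members of ATP synthase 5 of 13 were higher and none lower in sorbitol (median 0.308), while the mitochondrial MT-ATP6 was lower (-0.46 ± 0.164).

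**Figure D4:**
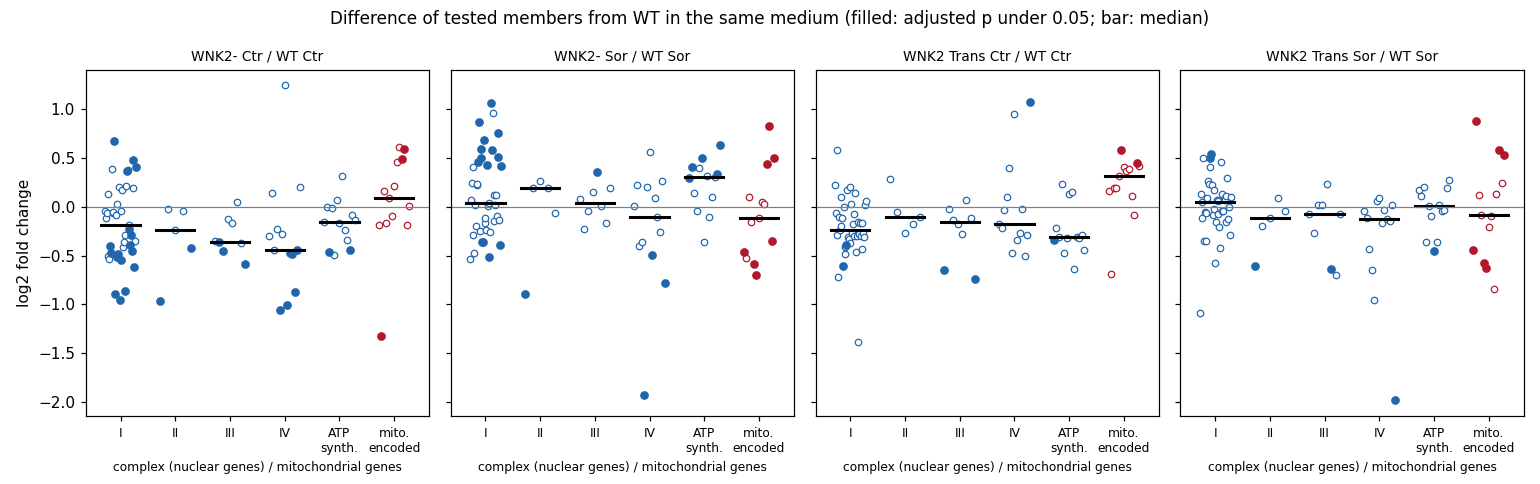
Log2 difference of each tested member from WT cells in the same medium, for WNK2- and WNK2 Trans cells, by complex and genome, with filled points at an adjusted p below 0.05 and bars at the medians. In sorbitol the nuclear ATP synthase median of WNK2- cells lies at 0.308, and in isotonic medium their complex IV median lies at -0.439.

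COX7A2 was among the members that were lower in WNK2- cells in both media. In isotonic medium it had 2673, 3877, 2260 and 1889 normalized counts in WT and 1456, 1372, 1278 and 1209 in WNK2- cells (-1.01 ± 0.17, adjusted p = 3.38e-05, edgeR). In sorbitol it had 1727, 1643, 1549 and 1793 against 1126, 1106, 1336 and 1185 (-0.50 ± 0.169, adjusted p = 0.0181). SDHAF1 had 365.7, 294.6, 243.1 and 252.4 in WNK2- Ctr, below the 428.7 to 768.1 of WT Ctr (-0.97 ± 0.187), and 255.4, 311, 290.8 and 297.3 in WNK2- Sor, below the 486.2 to 597.2 of WT Sor (-0.89 ± 0.187). NDUFAF7 and NDUFAF6 were likewise lower in both media, and all 4 passed under every alternative. SDHC was lower in isotonic medium (-0.42 ± 0.097), again under every alternative. COX6B2, the testis form in complex IV, had low counts, with 33.7 to 50.1 in WT Sor and 4.8 to 13.7 in WNK2- Sor (-1.93 ± 0.411, adjusted p = 0.000391).

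NDUFAF2, an assembly factor that binds a late intermediate of complex I, was the clearest member to be higher. It had 543.8, 458.3, 348.3 and 493.8 normalized counts in WT Ctr and 712.5, 786.2, 695.6 and 754.7 in WNK2- Ctr, then 350.6, 389.5, 358.2 and 397.1 in WT Sor and 663.1, 692.8, 672.3 and 711.4 in WNK2- Sor. The groups did not overlap in either medium (0.68 ± 0.14 and 0.87 ± 0.141, adjusted p = 0.000365 and 1.46e-05, edgeR). NDUFV3, a small accessory subunit of the NADH-binding module, was also higher in both media under every alternative. In sorbitol NDUFB9 was higher by 1.07 ± 0.204, with 2615, 2620, 3071 and 2569 against 1310, 1266, 1195 and 1416, and ATP5F1B by 0.41 ± 0.093 (adjusted p = 0.000718).

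Because the WNK2- cells are 1 clone, the tested genes within 2 Mb of each member were examined for shared shifts, with coordinates from GENCODE 29 (GRCh38). Around NDUFS6 (chr5:1801400-1816605), which was higher in both media (0.48 and 0.76), 17 of 21 neighbours were higher in isotonic medium with a median log2 difference of 1.31, and in sorbitol their median was 1.187. Around NDUFB6 (chr9:32552999-32573184), which was lower in both media (-0.86 and -0.52), 17 of 31 neighbours were lower in isotonic medium with a median of -0.575, and 16 in sorbitol with a median of -0.489. Around NDUFB9, 18 of 31 neighbours were higher in sorbitol with a median of 0.474. Around NDUFAF6 (chr8:94895767-95116455), lower in both media (-0.51 and -0.36), 14 of 24 neighbours were lower and 0 higher in isotonic medium, with a median of -0.584. In sorbitol 8 of the neighbours of NDUFAF6 were lower and 2 higher, with a median of -0.335. Of 42 neighbours of NDUFV3, 16 were higher and 4 lower in isotonic medium (median 0.327), and 17 and 7 in sorbitol (median 0.282). Of 10 neighbours of ATP5PF, higher in sorbitol (0.63), 6 were higher there and 2 lower (median 0.716). The neighbours of NDUFAF2 (chr5:60945129-61153037) had a median of 0.022 in isotonic medium. In sorbitol it was 0.456, with 6 of 10 higher and 1 lower. Those of COX7A2 (chr6:75237675-75250323) had medians of -0.139 and -0.024. Whether gene copy number differed between the lines was not tested.

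Transfection without sorbitol gave few calls, in libraries whose WNK2 counts go against the label. In WNK2 Trans Ctr 5 members were lower and 3 higher than in WT Ctr, against 6.98% lower, 5.57% higher and 12.5% changed among all genes. NDUFAF1 changed most firmly (-0.61 ± 0.126, adjusted p = 0.00144), yet no call of this comparison remained without WT Ctr 1 and 2. The 8 calls became 1 without WT Ctr 2, 4 without WNK2 Trans Ctr 2, 5 without WNK2 Trans Ctr 1 or 4, 16 without WT Ctr 4 and 21, all lower, without WNK2 Trans Ctr 3. MT-CYB (0.58 ± 0.186) and MT-ND5 (0.45 ± 0.126) were higher with all libraries, and UQCRQ (-0.74 ± 0.224) and UQCR10 (-0.65 ± 0.212) of complex III lower, the last 2 with overlap, and all 4 missed the threshold without WT Ctr 2. In sorbitol 7 members were lower and 5 higher than in WT Sor, against 15.5% lower, 16.1% higher and 31.6% changed among all genes. The 12 calls became 6 without WNK2 Trans Sor 2, 7 without WT Sor 1 and 26 without WNK2 Trans Sor 1, 22 of them lower. Those passing under every alternative were NDUFAF5, higher by 0.54 ± 0.112, and MT-CO3 (-0.58 ± 0.152) and NDUFA4L2 (-1.98 ± 0.34), both lower.

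The 13 mitochondrial mRNAs come from long transcripts that are cut into single messages, and they moved unequally. MT-CYB, the cytochrome b of complex III, had 60788, 55441, 58102 and 46984 normalized counts in WNK2 Trans Ctr and 39180, 19110, 29870 and 39864 in WNK2 Trans Sor, without overlap (-0.79 ± 0.187, adjusted p = 0.00117, edgeR). In WT cells MT-CYB had 20776 to 46280 in isotonic medium and 44117 to 53229 in sorbitol, a difference that did not pass. In WNK2- Sor it had 28241 to 31280, below every WT Sor library (-0.70 ± 0.186, adjusted p = 0.00306).

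MT-CO3 fell with sorbitol in WNK2 Trans cells as it did in WNK2- cells, from 67586, 62213, 83027 and 62256 to 55599, 29497, 36220 and 37657 (-0.79 ± 0.153, adjusted p = 0.000146, edgeR). In WT cells MT-CO3 had 43929 to 68778 in isotonic medium and 57356 to 62733 in sorbitol, with overlap. MT-CO1, the catalytic subunit of the same complex, lay between 101730 and 140550 in all 24 libraries and passed in none of the comparisons. 

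MT-ND4 and MT-ND4L, which are known to be read from 1 shared message, were both higher in WNK2- cells. MT-ND4L had 1942, 2688, 1938 and 2428 normalized counts in WT Sor and 4310, 3183, 4355 and 4165 in WNK2- Sor (0.83 ± 0.172, adjusted p = 0.000285, edgeR), without overlap. MT-ND4 had 66748 to 74346 in WT Sor and 91528 to 100630 in WNK2- Sor (0.44 ± 0.168, adjusted p = 0.0339), a call that 6 of the 8 single libraries could end, with adjusted p up to 0.0808. With the correction for GC content and length MT-ND4 did not pass in sorbitol (adjusted p = 0.405). Its lowest difference there over the alternatives was 0.183. MT-ND4L in sorbitol missed the threshold with the correction and a replicate block together (adjusted p = 0.0507). In isotonic medium the differences were 0.60 ± 0.171 for MT-ND4L and 0.50 ± 0.168 for MT-ND4, the latter lost without WT Ctr 2 (0.31, adjusted p = 0.082) or WNK2- Ctr 1 (0.45, adjusted p = 0.059). Neither passed without WT Ctr 1 and 2 (0.34, adjusted p = 0.174, and 0.29, adjusted p = 0.185) or with the correction for GC content and length (0.26, adjusted p = 0.171, and 0.34, adjusted p = 0.121).

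MT-ATP8 and MT-ATP6 also share a message, and here the values moved apart. MT-ATP8 had 133.8, 178.8, 198 and 118.1 normalized counts in WT Ctr and 79.5, 75.3, 80.2 and 84.7 in WT Sor (-0.98 ± 0.247, adjusted p = 0.00538, edgeR), while MT-ATP6 had 20055 to 36657 and 28586 to 33058 with overlap. In WNK2- Ctr MT-ATP8 had 52.6 to 80.8 (-1.32 ± 0.249 against WT Ctr), and in WNK2 Trans Sor 86.6 to 208.8. MT-ATP8 had at most 208.8 normalized counts in any library and MT-ATP6 at least 15371. Of the MT-ATP8 bases 22.2% lie within MT-ATP6, where a read cannot be assigned to 1 gene, so the MT-ATP8 counts are uncertain as a measure of the message.

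**Figure D5:**
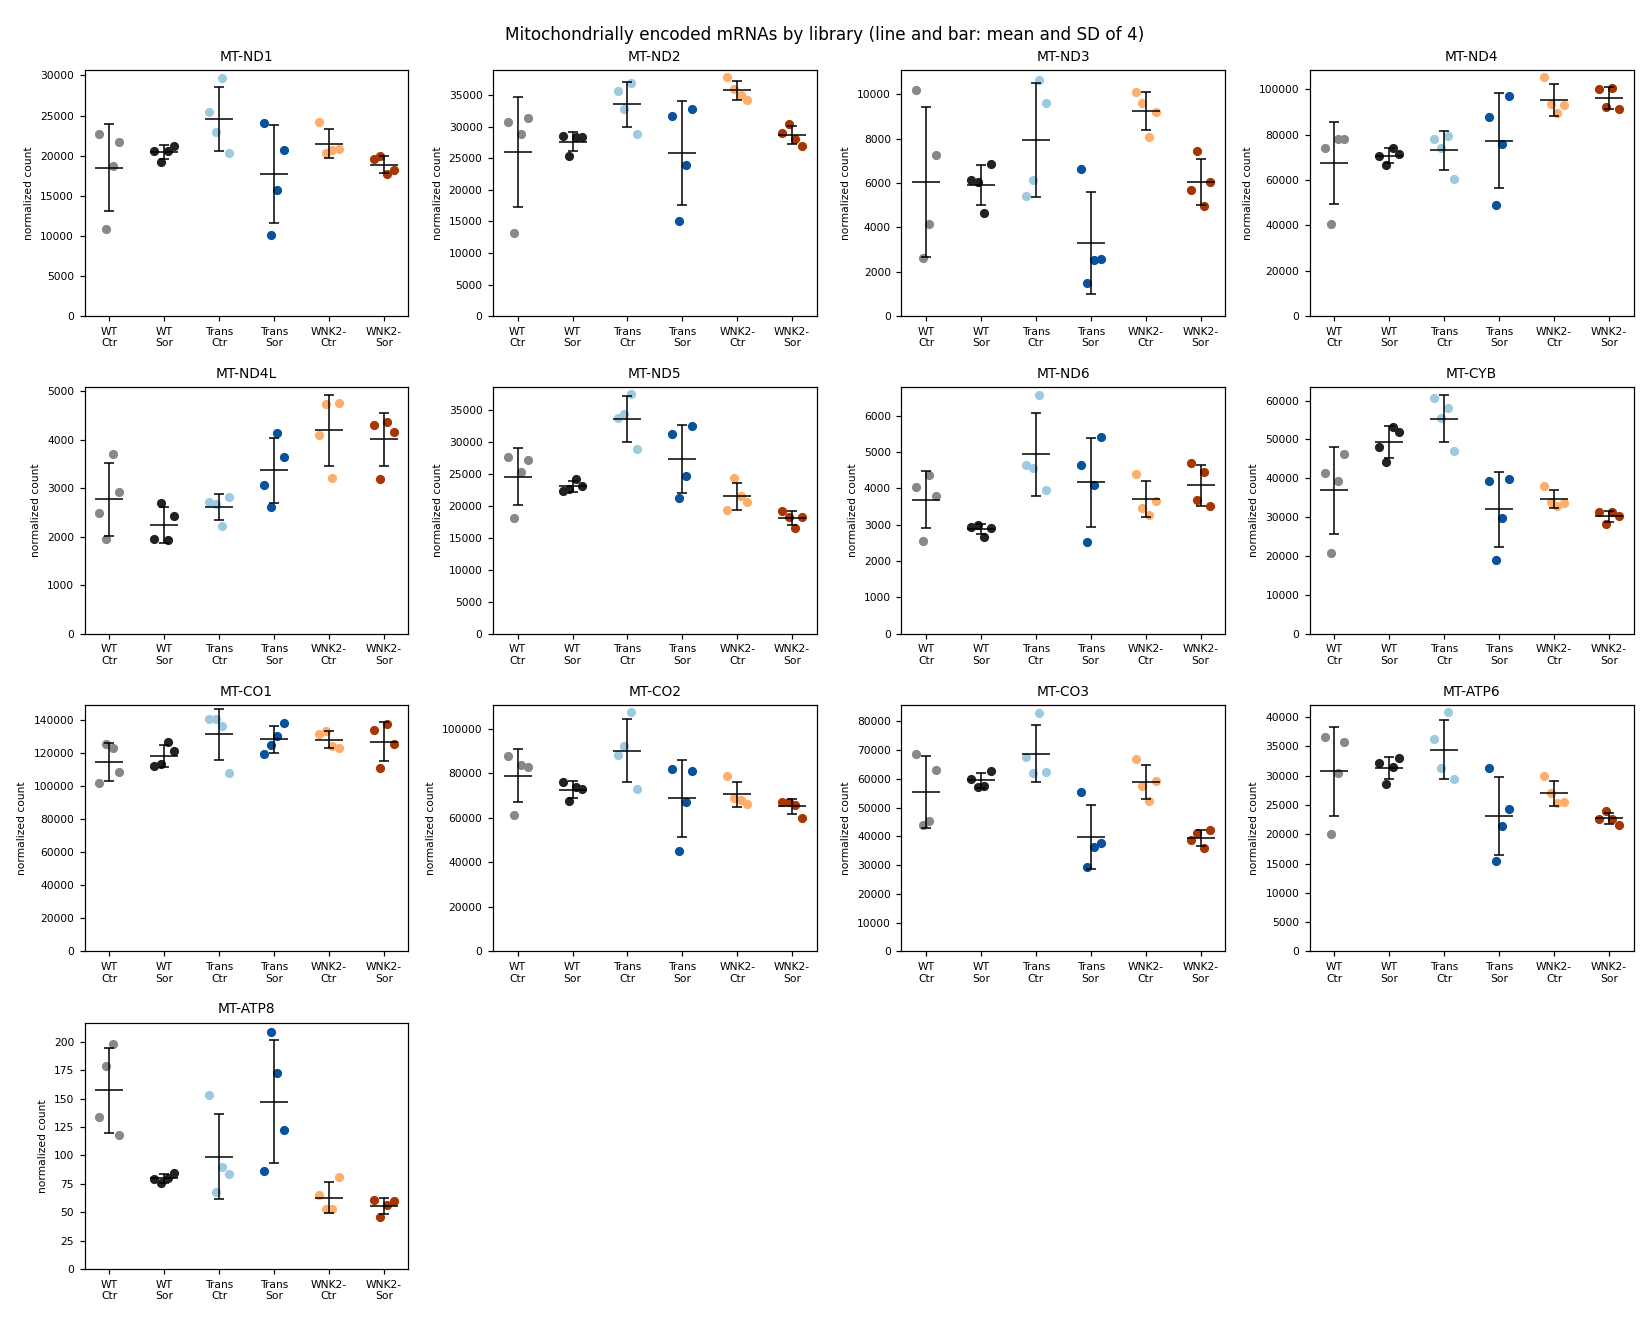
Normalized counts of the mitochondrial mRNAs in every library, with the mean and SD of each group, on linear axes from 0. MT-CO1 stays between 101730 and 140550, MT-CYB and MT-CO3 are lower in WNK2 Trans Sor than in WNK2 Trans Ctr, and WT Ctr 2 is low for MT-ND2 at 13089 and MT-ND4 at 40494.

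A few members divided WT Ctr differently from the rest. COX6B1 had 2779 and 2309 normalized counts in WT Ctr 1 and 4 and 1091 and 1105 in WT Ctr 2 and 3, NDUFA1 had 1035 and 655.8 against 330.4 and 254.2, and MT-ND3 had 10177 and 7255 against 2599 and 4149. The slope of a gene's level on its GC content, in log2 units per 10% GC, was 0.258 and 0.087 in WT Ctr 1 and 4 and -0.253 and -0.156 in WT Ctr 2 and 3. Over all libraries it ran from -0.471 in WNK2 Trans Sor 2 to 0.315 in WNK2 Trans Ctr 3, and its part in these values was not tested.

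Genes around the respiratory chain were counted in lists outside the naming rule. After sorbitol in WT cells, 34 of 60 tested mitochondrial ribosomal proteins were lower and none higher (median -0.404), and 56 of 70 cytosolic ribosomal proteins were lower and none higher (median -0.641), against 12.8% of all genes lower and 11.4% higher. Without WT Ctr 1 and 2, these became 10 of 60 and 16 of 70, with medians of -0.198 and -0.374, against 5.88% of all genes lower. Of 16 cytochromes c and electron carriers 8 were lower, of 18 genes of the tricarboxylic acid cycle 7, among them fumarate hydratase FH (-0.54), and of 22 genes for copying, transcribing and handling mitochondrial nucleic acids 9, among them SLIRP, which stabilises mitochondrial mRNAs (-0.99), and the packaging factor TFAM (-0.42). In the cristae and import list 8 of 16 were lower, with the chaperonin HSPD1 at -0.57, and in the ADP/ATP carriers, porins and uncouplers 5 of 11. None of the genes of these 5 lists was higher. Without WT Ctr 1 and 2 the numbers lower were 2 of the 16 cytochromes and carriers, 3 of the 18 tricarboxylic acid cycle genes, 2 of the 22 nucleic acid genes, 3 of the 16 cristae and import genes and 2 of the 11 ADP/ATP carriers and porins.

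Among assembly factors outside the prefixes, in WT cells 4 of 11 for complex I were lower, with TMEM126A at -0.94, 0 of 8 for complex III, 4 of 15 for complex IV with 1 higher, and 2 of 4 for ATP synthase. Without WT Ctr 1 and 2, 2 of the 11 complex I factors were lower and none of the others. Among 11 regulators of respiratory genes 4 were higher and 1 lower after sorbitol in WT cells. PPARGC1A, a coactivator that drives mitochondrial genes in other tissues, changed by 1.08, and GABPB1, a subunit of the ETS factor GABP, by -0.66. Without WT Ctr 1 and 2, 3 regulators were higher and 2 lower.

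In WNK2- cells the same treatment lowered 11 of 70 cytosolic ribosomal proteins and none of 60 mitochondrial ones, of which 1 was higher, against 6.64% of all genes lower. In WNK2 Trans cells 61 of 70 cytosolic ribosomal proteins were lower (median -0.803), and of 60 mitochondrial ones 17 were lower and 1 higher, against 23.7% of all genes lower. Between WNK2- and WT cells in sorbitol, 23.7% of all genes were higher and 22.7% lower in WNK2- cells. There 7 of 11 carriers and porins were higher, including VDAC2 (0.97), and 7 of 16 cristae and import genes higher and 1 lower, with HSPD1 at 0.87. Of the mitochondrial nucleic acid genes 10 of 22 were higher and 2 lower. Of 60 mitochondrial ribosomal proteins 14 were higher, near the share of all genes, and 4 lower, below it.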

How the data were processed

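RNA-seq was available for 24 libraries of T/C-28a2 cells in 6 groups of 4, assigned from the sample labels. The deposited files hold whole-number counts per gene, which the authors made by aligning reads with HISAT2 and counting with HTSeq. The submitters' processing notes name FastQC 0.11.9, HISAT2 2.2.1, HTSeq 2.0.2 and DESeq2 1.38.3. The annotation release is not given in the sources used here. Symbols and coordinates were taken from GENCODE 29. The members and gene lists were chosen with earlier results of these data known.

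Counts were fitted with edgeR 4.0.16 (R 4.3.3), using TMM factors, filterByExpr with a minimum count of 10, 6 group means over all 24 libraries and the quasi-likelihood test. P-values were adjusted by Benjamini-Hochberg over all 16600 tested genes with a threshold of 0.05, and the SE was taken as the size of a log2 fold change over the square root of its F. Normalized counts were scaled to the mean TMM-adjusted library size. Libraries held 14153002 to 25664619 counts, and replicates of a group differed by a chi-square of 2.3 to 67.9 per degree of freedom, more than counting error.

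Members named with values were the mitochondrial mRNAs, the 3 largest rises and falls past the threshold in each comparison (mean log2 CPM of at least 3), the 3 smallest p-values of each interaction, the paralogue pairs, the complex I core subunits, complex II and the highest member per complex. Members that passed under every alternative, those beside shifted neighbours and those that divided WT Ctr were named after their values were seen, as were the printed promoters. Alternatives were DESeq2 1.42.0, RLE or upper-quartile factors, other count filters, thinning to the smallest total, only the groups compared, mitochondrial genes left out of scaling, a replicate block, a correction for GC content and length, and each library left out. The removal of WT Ctr 1 and 2, and of the replicate 2 libraries of WT Ctr and WNK2 Trans Sor, was chosen after seeing the data. The procedure was tested on simulated data. Some items are not reported here.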

Additional observations from a re-analysis of the deposited data

Results flagged for a closer look

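Of 246 groups of 4 values examined, 19 held 1 library far from the other 3 relative to the group's range, where chance gives about 1 in 20. WT Ctr 2 was low in 3 of them, with 1.88% of counts in mitochondrial mRNAs (others 2.61% to 2.71%), 13090.0 normalized counts of MT-ND2 (28820.0 to 31430.0) and 40490.0 of MT-ND4 (73960.0 to 77940.0). The others follow as normalized counts of the distant library. In WT Ctr 4 NDUFA4L2 was high at 47.8. In WT Sor, MT-ND2 was low in library 2 at 25340.0, UQCRC1 was low at 6426.0, NDUFA1 low at 366.3 and NDUFAF5 high at 930.4 in library 3, and UQCR10 was high at 243.0 in library 4. In WNK2 Trans Ctr 4 MT-CO1 was low at 108100.0. In WNK2 Trans Sor, COX7A2 was low at 1131.0 in library 4, and COX6B1 at 1930.0 and UQCRH at 1926.0 were high in library 1. In WNK2- Ctr, MT-ND1 was high at 24230.0 in library 1, and NDUFA1 was low at 470.7 and COX6B2 high at 25 in library 3. In WNK2- Sor, MT-ND4L was low at 3183.0 in library 2, and NDUFB9 at 3071.0 and NDUFA4 at 1618.0 were high in library 3.

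The response to sorbitol differed from that of WT cells in 22 tests of interaction by edgeR. These are 3.3% of the tested members for WNK2- cells and 20.9% for WNK2 Trans cells, against 8.65% and 35.5% of all genes. None of the first and 8 of the second, MT-ATP8, NDUFAF1, NDUFAF3, NDUFAF4, NDUFAF5, MT-CO3, MT-CYB and NDUFA4L2, passed under every alternative, and among the rest the smallest values reached 0.052 for NDUFS4, -0.167 for SDHAF1 and 0.229 for MT-ND4L. For WNK2- cells the log2 differences were 0.415 for ATP5F1B, 0.751 for ATP5MK and -0.682 for MT-CO3. For WNK2 Trans cells the differences above 0 were 0.507 for ATP5F1A, 0.336 for ATP5F1B and 0.477 for ATP5PB of ATP synthase, 0.877 for NDUFAF1, 0.889 for NDUFAF3, 0.916 for NDUFAF4 and 0.933 for NDUFAF5 among assembly factors, 1.222 for NDUFA2, 0.93 for NDUFB9, 0.409 for NDUFS4 and 0.735 for NDUFS6 among complex I subunits, 0.506 for UQCRFS1, 1.571 for MT-ATP8 and 0.67 for MT-ND4L. Those below 0 were -0.604 for MT-ATP6, -0.895 for MT-CO3, -1.207 for MT-CYB, -0.891 for SDHAF1 and -3.065 for NDUFA4L2. NDUFA2 shares 13% of its exon bases with another gene and has low counts.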

How the results depend on the processing

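The number of members called was recomputed 199 times and stayed within 1.5 times of its value in 138. The causes of the other moves were not tested. For sorbitol in WT cells (45) it was 29 with only the groups compared, 8 without WT Ctr 1 and 2, 27 without the replicate 2 libraries of WT Ctr and WNK2 Trans Sor, and 26 to 48 with single libraries left out. For sorbitol in WNK2- cells (2) it was 1 with upper-quartile factors, 14 with only the groups compared, 14 with the correction for GC content and length, and 1 to 2 with single libraries left out. For sorbitol in WNK2 Trans cells (34) these were 22 with only the groups compared, 67 with the correction, and 21 to 45. For WNK2- against WT cells it was 16 in isotonic medium (33) without WT Ctr 1 and 2, and 54 in sorbitol (32) with only the groups compared. For WNK2 Trans against WT cells in isotonic medium (8) it was 15 by DESeq2, 0 with only the groups compared, 17 with the correction, 0 without WT Ctr 1 and 2, 4 without the replicate 2 libraries, and 1 to 21. In sorbitol (12) it was 20 with the correction and 6 to 26. For the WNK2- interaction (3) it was 16 by DESeq2 and with only the groups compared, 8 with at least 10 counts in every library, 11 with the correction, 0 without WT Ctr 1 and 2, 1 without the replicate 2 libraries, and 0 to 18. For the WNK2 Trans interaction (19) it was 29 with the correction, 11 without the replicate 2 libraries, and 13 to 32.

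With the replicate number as a block the counts were 45, 2, 35, 32, 31, 7, 14, 3 and 23 for the 3 sorbitol comparisons (WT, WNK2- and WNK2 Trans), WNK2- against WT in isotonic medium and sorbitol, WNK2 Trans against WT in the same order, and both interactions. Block and correction together gave 14, 66, 15, 22, 10 and 30 for sorbitol in WNK2- and in WNK2 Trans cells, WNK2 Trans against WT in both media and the interactions. The numbers did not pair the libraries as a whole: deviations of same-numbered libraries correlated at -0.76 to 0.88 over 60 pairs, 26 of them above 0.1, and 10 of 24 libraries correlated best with their own number. WT Ctr and WNK2 Trans Sor, which are not compared directly but enter 1 interaction, correlated at all 4 numbers (0.27 to 0.88).

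Of 2200 recomputed values for 104 named changes, 1822 kept direction and side of the threshold, 378 kept direction and missed the threshold, and 0 reversed. Low counts limit NDUFA4L2, COX6B2, COX7A1 and MT-ATP8.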
